A study of Mus musculus with 6 samples.

Results

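Circadian clock repressors and outputs were examined in RNA-seq libraries of mouse long-term hematopoietic stem cells, the rare marrow cells that sustain blood formation. The 10 genes were Per1, Per2, Per3, Cry1, Cry2, Nr1d1, Nr1d2, Dbp and Tef, with Arntl as the reference of opposite phase. They were found by symbol among 11779 genes of the count table, and all 10 entered the 10869 genes tested. They were selected on their difference between the genotypes in these libraries, so that difference is given as a description, with no test of its own. The HET group (n = 3 libraries) had the genotype c-Mycfl/+Mx1Cre. Its Cre recombinase is under the Mx1 promoter, which interferon switches on in many cell types. The WT group (n = 3) was c-Mycfl/+ without Cre. The floxed Myc allele, which encodes a growth-regulating transcription factor, was thus shared by both groups. All mice were female and aged 8 weeks. Deletion was induced with 3 intraperitoneal injections of 6 mg/kg poly(I:C), a double-stranded RNA analog, and whether WT mice were injected is not stated separately. Marrow cells were sorted on CD150, Sca1 and c-Kit, and cells with CD48 or lineage markers were left out. Library numbers were 1, 3 and 4 in both groups, the titles call the HET libraries KO, and the labels give neither the time of day of collection nor the number of animals per library. Spread between libraries may therefore be partly technical.

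The mammalian clock is a feedback loop of transcription. CLOCK and BMAL1, the product of Arntl, bind E-box sequences and drive the Per, Cry, Nr1d, Dbp and Tef genes. PER and CRY proteins then repress CLOCK and BMAL1, and the REV-ERB receptors encoded by Nr1d1 and Nr1d2 repress Arntl through ROR elements, so that Arntl RNA peaks when its targets are low. DBP and TEF are output factors that bind D-boxes. MYC, with its partner MAX, recognises the same core E-box letters as CLOCK and BMAL1. Per1 is also an acutely inducible gene that responds to cAMP signalling through CREB and to glucocorticoids. In marrow, release of stem and progenitor cells into blood follows a daily rhythm.

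Promoter windows are shown because the loop is wired through these letters. Windows of 250 bases before to 50 after each start came from RefSeq (GRCm38.p6) and covered 9 of the 10 genes (all but Per2) in 12 windows. Capitals mark the motif letters found on either strand. The 5 windows printed hold the E-box and the cAMP response core of Per1, the E-box and E-prime box of Cry1, the D-boxes of Per3 and the ROR elements of Arntl.
Per1, start 1, chr11:69098699-69098998, plus strand: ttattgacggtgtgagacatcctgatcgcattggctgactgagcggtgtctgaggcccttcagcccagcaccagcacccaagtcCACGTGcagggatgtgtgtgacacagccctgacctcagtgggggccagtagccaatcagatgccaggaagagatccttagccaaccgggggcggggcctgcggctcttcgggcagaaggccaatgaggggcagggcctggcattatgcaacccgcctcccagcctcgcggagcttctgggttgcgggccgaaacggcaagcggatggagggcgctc
Per1, start 2, chr11:69099902-69100201, plus strand: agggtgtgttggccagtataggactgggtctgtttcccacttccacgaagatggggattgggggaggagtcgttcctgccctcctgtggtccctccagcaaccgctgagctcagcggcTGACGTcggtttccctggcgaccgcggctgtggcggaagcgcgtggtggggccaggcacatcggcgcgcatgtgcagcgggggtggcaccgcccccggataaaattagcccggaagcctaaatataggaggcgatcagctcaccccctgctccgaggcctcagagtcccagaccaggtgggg
Cry1, chr10:85185005-85185304, minus strand: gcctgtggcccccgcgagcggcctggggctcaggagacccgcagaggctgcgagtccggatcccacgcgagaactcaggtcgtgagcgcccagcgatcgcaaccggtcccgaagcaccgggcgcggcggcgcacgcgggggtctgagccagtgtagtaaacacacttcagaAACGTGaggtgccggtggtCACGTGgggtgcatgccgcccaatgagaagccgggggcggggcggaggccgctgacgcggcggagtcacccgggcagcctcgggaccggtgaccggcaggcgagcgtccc
Per3, chr4:151044616-151044915, minus strand: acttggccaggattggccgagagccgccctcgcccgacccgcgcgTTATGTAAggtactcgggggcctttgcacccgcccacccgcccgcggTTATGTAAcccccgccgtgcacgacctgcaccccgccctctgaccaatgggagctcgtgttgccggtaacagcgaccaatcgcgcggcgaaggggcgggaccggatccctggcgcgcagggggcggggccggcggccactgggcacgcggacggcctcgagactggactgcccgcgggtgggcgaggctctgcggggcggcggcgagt
Arntl, start 2, chr7:113207261-113207560, plus strand: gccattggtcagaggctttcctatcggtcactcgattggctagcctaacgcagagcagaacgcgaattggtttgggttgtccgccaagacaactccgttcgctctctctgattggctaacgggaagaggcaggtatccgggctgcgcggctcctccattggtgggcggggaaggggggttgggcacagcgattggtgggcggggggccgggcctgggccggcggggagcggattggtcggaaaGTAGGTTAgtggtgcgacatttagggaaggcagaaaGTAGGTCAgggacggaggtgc

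The E-box CACGTG was found once in Per1 start 1, in Cry1 and in both Tef windows, against 7.15% of all 32851 windows of this length. The related letters CACGTT, called the E-prime box, were found in Cry1, Cry2 and Nr1d1, all on the reverse strand, against 4.68% of all windows. The D-box TTATGTAA occurred at 2 positions in Per3, at -205 and -158 from the start, against 0.938% of windows with any. ROR element letters GTAGGTNA occurred at 2 positions in Arntl and in no window of another of these genes, against 2.14% of all windows with any. The Arntl windows overlap, and the match in the first is the same site as one of those in the second. The cAMP response core TGACGT lay at -132 from Per1 start 2, against 7.51% of all windows. No match overlapped another, and the windows of Nr1d2 and Dbp held none of these letters. A match describes the sequence and shows no binding.

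**Figure D1:**
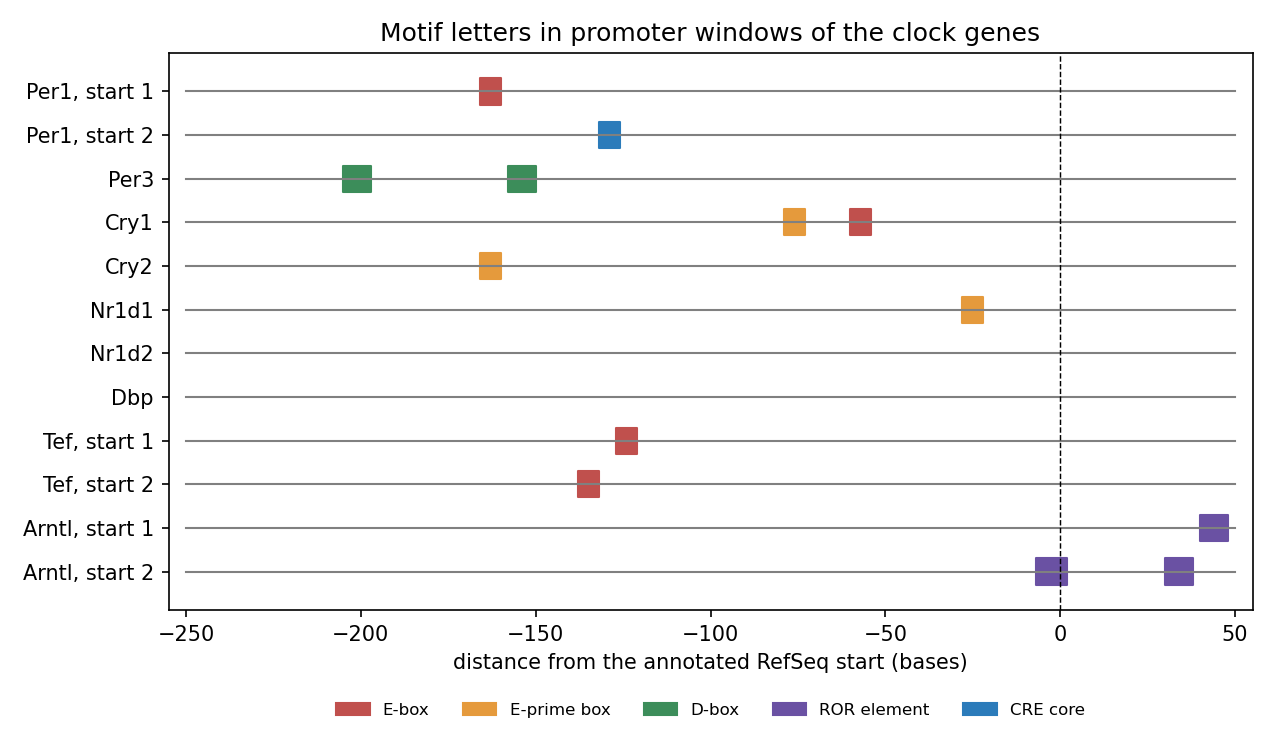
Positions of the motif letters in the promoter windows, in bases from each annotated RefSeq start (dashed line). Each grey line is 1 window of a gene. E-box letters (red) lie in Per1, Cry1 and Tef, D-box letters (green) in Per3 and ROR element letters (purple) in Arntl, and Nr1d2 and Dbp have no coloured block.

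Total counts ranged from 4249490 to 9886223 per library, and HET 1 was the deepest. Levels are given in CPM, reads of a gene scaled to equal library totals, which were adjusted by the trimmed mean of M-values (TMM). The targeted gene Myc had 294, 387 and 372 CPM in HET 1, 3 and 4, against 447, 427 and 542 CPM in WT 1, 3 and 4. All 10 listed stem cell markers were present, with summed levels of 2526 to 2961 CPM in HET and 2702 to 2989 CPM in WT. Megakaryocyte markers (6 of 6 present) summed to 900 to 1097 CPM in HET and 754 to 769 CPM in WT, without overlap. Among them only Itga2b separated the groups by itself, at 438 ± 107 CPM in HET and 289 ± 26.5 CPM in WT (SD, n = 3 each). The part of these markers in the results below was not tested. Myeloid markers (8 of 8) summed to 269 to 545 CPM in HET and 193 to 694 CPM in WT. Cd48, whose protein the sort selected against and whose part was likewise not tested, had 3.67, 8.29 and 8.96 CPM in HET and 3.25, 2.74 and 1.67 CPM in WT. In bulk RNA, fewer cells of a type and less RNA per cell cannot be told apart.

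The 9 repressor and output genes were lower in HET on average and Arntl was higher. Fitted log2 fold changes of HET over WT ran from -0.73 for Per1 to -0.12 for Per3, with a median of -0.38 over the 9 genes, and Arntl had 0.42. The median over all genes tested was 0.00, and 49.3% of them had a value below 0. In 4 of the 10 genes (Per1, Cry2, Nr1d2 and Tef) the highest HET library was below the lowest WT library, a separation found in 5.64% of all genes tested. The opposite separation, found in 4.69% of all genes, occurred in 0 of the 10. Per1 alone among the 10 passed an edgeR adjusted p of 0.05, which 0.258% of all genes did (28 of 10869). The count over all genes was 68 without HET 1, 10 without HET 4 and 11 without WT 1. As the genes were selected on this contrast, nothing further is read from these counts.

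**Figure D2:**
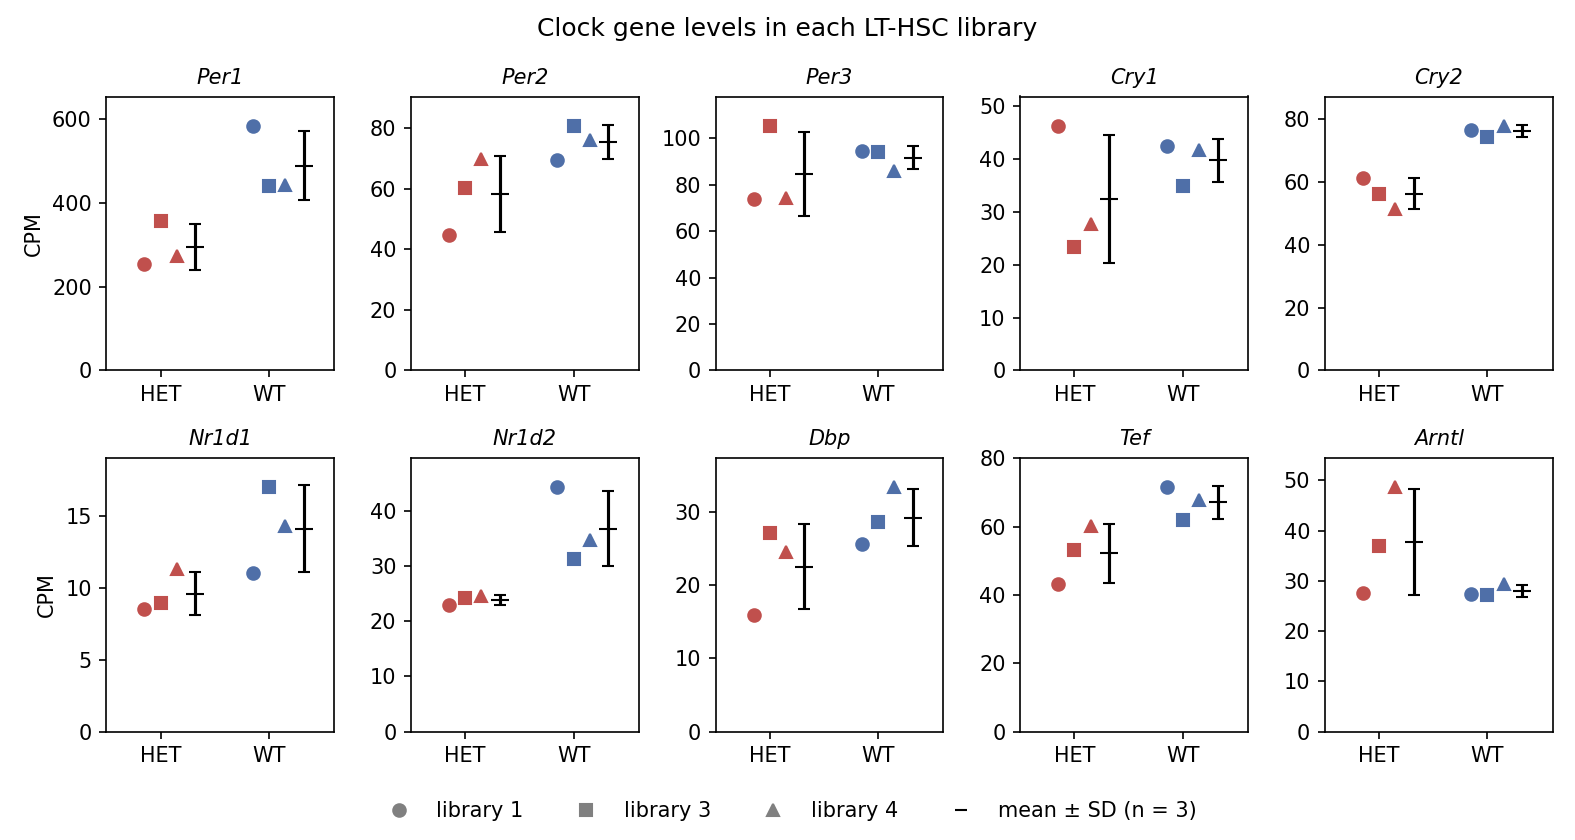
CPM of each clock gene in the 3 HET libraries (red) and 3 WT libraries (blue), with marker shapes for the library number and bars for mean ± SD. Per1, Cry2, Nr1d2 and Tef separate the groups, and HET 1 (red circles) is the highest HET library of Cry1 and Cry2 and the lowest of the other 8 genes.

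Among the PERIOD repressors, which bring CRY proteins into the repressor complex, Per1 differed the most. Per1 (ENSMUSG00000020893; GRCm38 chromosome 11, 69095217 to 69109960, plus strand) had 255, 357 and 273 CPM in HET 1, 3 and 4, against 584, 441 and 443 CPM in WT 1, 3 and 4. HET 3 was the highest HET library and still lay below the lowest WT library. The means were 295 ± 54.6 CPM in HET and 489 ± 82.4 CPM in WT (SD, n = 3 each), and the fit put HET at 60.2% of WT, or -0.73 ± 0.14 (SE) in log2 fold change. Leaving out WT 1, the highest library, gave -0.59, leaving out HET 4 gave -0.67 and leaving out WT 3 gave -0.80, and in these 3 fits Per1 no longer passed the adjusted threshold. Leaving out HET 1, HET 3 or WT 4 gave -0.64, -0.89 and -0.80, and it passed.

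Per2, a core repressor whose loss shortens the mouse clock, had 44.9, 60.2 and 70.0 CPM in HET 1, 3 and 4, against 69.5, 80.9 and 76.3 CPM in WT 1, 3 and 4. The groups touched, because HET 4 lay just above WT 1. The log2 fold change was -0.38 ± 0.18 (SE), and without HET 1 it was -0.21. Per3, the member least needed for rhythm in mice, had 73.7, 105 and 74.4 CPM in HET 1, 3 and 4, against 94.5, 94.2 and 85.9 CPM in WT 1, 3 and 4. Its highest value of all 6 was HET 3, while HET 1 and HET 4 were the lowest. The log2 fold change of -0.12 ± 0.16 (SE) was smaller than its error, and it ranged from -0.31 without HET 3 to -0.03 without HET 1.

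The cryptochromes are the direct inhibitors of CLOCK and BMAL1. Cry2 had 61.2, 56.0 and 51.4 CPM in HET 1, 3 and 4, against 76.3, 74.1 and 77.7 CPM in WT 1, 3 and 4. The WT libraries lay close together and all HET libraries were below them, with a log2 fold change of -0.43 ± 0.16 (SE). Cry1, which carries the E-box and E-prime box printed above, had 46.2, 23.3 and 27.7 CPM in HET 1, 3 and 4, against 42.4, 34.9 and 41.7 CPM in WT 1, 3 and 4. HET 1 was the highest of the 6 libraries and the other HET libraries were the lowest. The log2 fold change was -0.28 ± 0.24 (SE) with all libraries and -0.64 without HET 1, and without HET 3 it was -0.09.

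In the fit of all libraries the REV-ERB receptors came next after Per1. This order held without WT 4 but changed when any other library was left out. Without HET 3, Dbp (-0.54) lay beyond Nr1d1 (-0.52), and without HET 4 Nr1d1 (-0.69) lay beyond Per1 (-0.67). Without HET 1, Cry1 (-0.64) lay beyond both receptors, without WT 1 Nr1d1 (-0.71) lay beyond Per1 (-0.59), and without WT 3 Cry2 (-0.45) lay beyond Nr1d1 (-0.40). Nr1d2, which encodes REV-ERB beta, had 22.9, 24.2 and 24.6 CPM in HET 1, 3 and 4, against 44.4, 31.3 and 34.8 CPM in WT 1, 3 and 4. HET libraries were close together and all below WT, with a log2 fold change of -0.63 ± 0.23 (SE). Nr1d1, which encodes REV-ERB alpha, had the lowest CPM of the 10 genes, before scaling for length. It had 8.53, 8.94 and 11.3 CPM in HET 1, 3 and 4, against 11.0, 17.0 and 14.3 CPM in WT 1, 3 and 4. HET 4 lay between WT 1 and the other WT libraries. Its log2 fold change was -0.56 ± 0.35 (SE), resting on 41 to 86 counts per HET library and 60 to 93 per WT library. Exons of Nr1d1 share 263 bases, 8.55% of its exonic length, with the opposite-strand gene Thra. Thra averaged 158 ± 30.5 CPM in HET and 159 ± 12.4 CPM in WT (SD, n = 3 each), and no source used here says whether reads were counted by strand, so the level of Nr1d1 is uncertain.

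The output factors DBP and TEF belong to the PAR bZIP family and bind D-boxes such as the pair in the Per3 window. Tef had 43.1, 53.2 and 60.2 CPM in HET 1, 3 and 4, against 71.6, 61.8 and 67.7 CPM in WT 1, 3 and 4. All HET libraries were below all WT libraries, by a narrow margin between HET 4 and WT 3, and the log2 fold change was -0.37 ± 0.18 (SE), or -0.24 without HET 1. Dbp had 16.0, 27.0 and 24.6 CPM in HET 1, 3 and 4, against 25.6, 28.5 and 33.4 CPM in WT 1, 3 and 4. HET 1 was far below the rest, HET 3 lay above WT 1, and the log2 fold change was -0.38 ± 0.26 (SE) with all libraries and -0.18 without HET 1. Dbp shares 18.0% of its exonic bases with the opposite-strand gene Sphk2, which averaged 56.0 ± 6.30 CPM in HET and 47.6 ± 8.40 CPM in WT (SD, n = 3 each), so the level of Dbp is also uncertain. Cry2, Tef and Arntl share 4.67%, 2.45% and 0.439% of their exonic bases with opposite-strand genes, and the other genes share none.

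Arntl (ENSMUSG00000055116; chromosome 7, 113207465 to 113314126, plus strand), which encodes the activator BMAL1, had 27.6, 36.9 and 48.7 CPM in HET 1, 3 and 4, against 27.4, 27.3 and 29.3 CPM in WT 1, 3 and 4. HET 3 and HET 4 lay above every WT library and HET 1 lay among them. The means were 37.7 ± 10.6 CPM in HET and 28.0 ± 1.15 CPM in WT (SD, n = 3 each), and the fitted log2 difference was 0.42 ± 0.24 (SE). This value was 0.61 without HET 1 and 0.20 without HET 4.

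**Figure D3:**
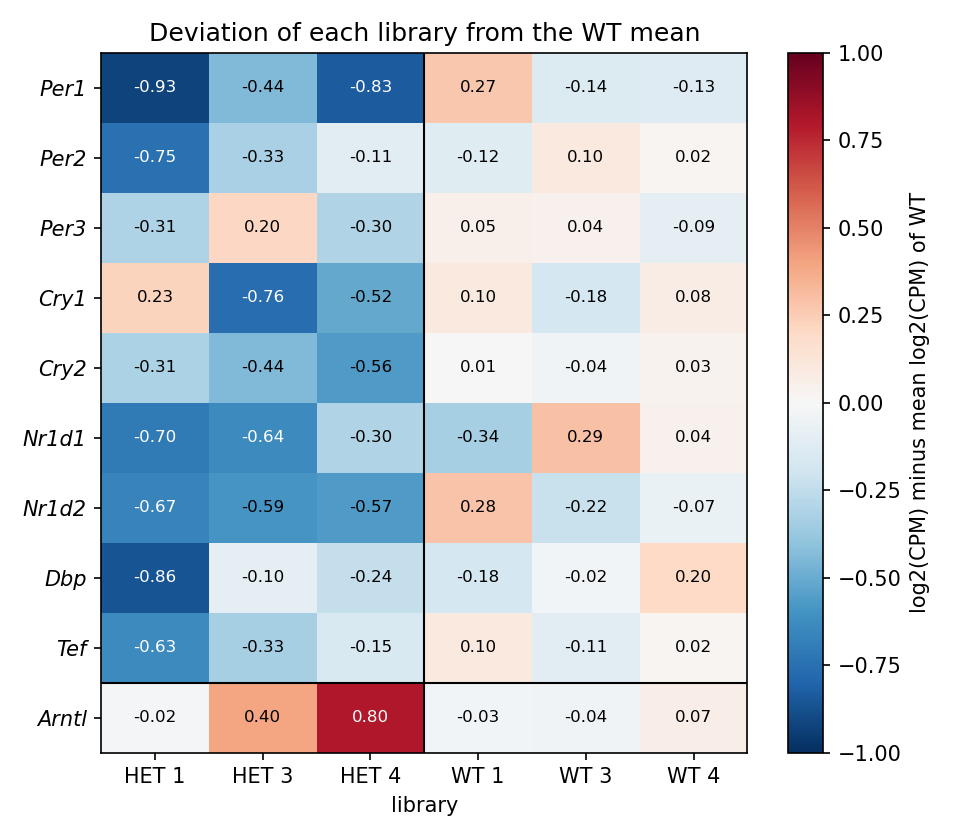
Log2 CPM of each gene in each library minus the mean log2 CPM of the WT libraries, with HET libraries on the left. Most repressor and output cells are blue in HET, with positive values for Per3 in HET 3 (0.20) and Cry1 in HET 1 (0.23), and Arntl is at 0.40 and 0.80 in HET 3 and HET 4 but -0.02 in HET 1.

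Each HET library carried the lower levels, all of them in Per1, Cry2, Nr1d2 and Tef, but the further genes differed between libraries. Relative to the WT mean, the average of the 9 repressor and output genes was -0.55, -0.38 and -0.40 log2 units in HET 1, 3 and 4, against 0.02, -0.03 and 0.01 in WT 1, 3 and 4. Of these 9 genes, 8 in HET 1, 7 in HET 3 and 7 in HET 4 lay below the lowest WT library, as did 25.8%, 26.8% and 25.7% of all genes tested. The genes were selected on this contrast, so nothing is read from these shares. HET 1 was the lowest HET library for 8 of the 10 genes and the highest for the other two, Cry1 and Cry2. HET 1 had the largest deficits of Per2 (-0.75), Dbp (-0.86) and Tef (-0.63), with Arntl at the WT level. HET 4 had the largest excess of Arntl (0.80) beside small deficits of Per2 (-0.11), Tef (-0.15) and Dbp (-0.24).

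Within the groups, Arntl did not vary opposite to the output factor genes Dbp and Tef. After each group's mean was subtracted, Pearson's r over the 6 libraries was 0.93 between Arntl and Per2, 0.91 between Arntl and Tef and 0.75 between Arntl and Dbp. It was -0.92 between Arntl and Cry2, and -0.67 between Arntl and Cry1. With Nr1d1, Nr1d2, Per1 and Per3, Arntl had r of 0.53, 0.17, 0.10 and -0.0024. Between Per1 and Per3, r was 0.80. These values describe 6 libraries that share library depth and composition between genes. HET 1, the deepest library, and HET 4 lie at the ends for Arntl, and HET 1 and HET 3 for Per1 and Per3. Arntl varied little in WT (SD of log2 CPM 0.06, against 0.41 in HET), so its correlations rest mainly on HET. The log2 ratio of Arntl to Nr1d2 was 0.27, 0.61 and 0.99 in HET 1, 3 and 4, against -0.69, -0.20 and -0.25 in WT 1, 3 and 4. The log2 ratio of Arntl to Dbp was 0.79, 0.45 and 0.99 in HET, against 0.10, -0.07 and -0.19 in WT. These ratios restate the differences on which the genes were selected.

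Scaled for exonic length, Per1 dominated the set. In CPM per kilobase of exon (RPKM, scaled by TMM), Per1 averaged 52.4 ± 9.71 in HET and 86.9 ± 14.6 in WT (SD, n = 3 each). Per2 came next with 9.97 ± 2.15 RPKM in HET and 12.9 ± 0.980 in WT, so the step from Per1 exceeded any spread between libraries. Per2, Cry1, Cry2, Per3 and Dbp formed neighbours in both groups, with RPKM means from 7.52 to 9.97 in HET and from 9.53 to 12.9 in WT, and steps between neighbours within their spread. Tef and then Nr1d2 followed in WT, with overlapping libraries. At the low end, Nr1d2 averaged 4.42 ± 0.160 RPKM in HET and 6.81 ± 1.25 in WT, above Nr1d1 without overlap in either group. Nr1d1 averaged 3.12 ± 0.486 RPKM in HET and 4.59 ± 0.978 in WT. Arntl averaged 5.01 ± 1.41 RPKM in HET, where it ranked 8 of 10, and 3.72 ± 0.153 in WT, where it ranked 10. Its WT libraries (3.62 to 3.90 RPKM) overlapped those of Nr1d1 (3.58 to 5.53).

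**Figure D4:**
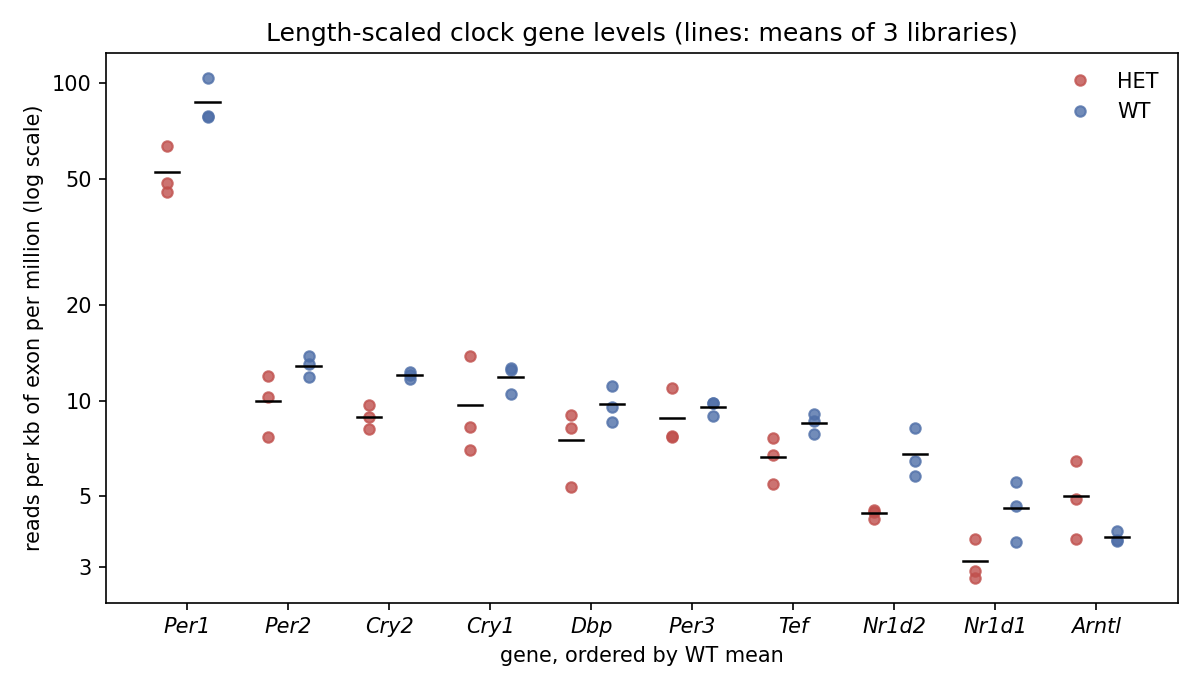
RPKM (log axis) of the 10 genes in HET (red, left) and WT (blue, right), 1 point per library and a line at the mean, ordered by the WT mean. Per1 lies far above the other 9 genes in both groups. Arntl has the lowest mean in WT, where its points overlap those of Nr1d1, but not in HET.

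The other core clock factors gave no call. Of 13 further genes of the loop, 10 were tested. In edgeR 0 of them passed, 1 of 10 had an unadjusted p under 0.05, against 5.22% of all genes tested, and DESeq2 and limma-voom also gave 0. Their median log2 fold change was -0.27, with 8 values below 0 and 2 above. Bhlhe40, which encodes the E-box repressor DEC1, had the smallest p, with 30.7, 26.6 and 28.8 CPM in HET 1, 3 and 4, against 52.3, 38.1 and 39.6 CPM in WT 1, 3 and 4. Its libraries did not overlap, and the log2 fold change of -0.59 ± 0.21 (SE) had an edgeR adjusted p of 0.686. Clock, the partner of BMAL1, averaged 23.3 ± 6.04 CPM in HET and 23.4 ± 7.44 CPM in WT (SD, n = 3 each), and its fitted log2 difference was -0.02 ± 0.29 (SE). Rora, whose protein activates Arntl through the ROR element, gave -0.26 ± 0.28 (SE; edgeR adjusted p = 0.995) in log2 fold change, which turned to 0.02 without HET 1 and to -0.60 without HET 4. Nfil3, which encodes a repressor of D-box genes, had -0.44 ± 0.60 (SE; edgeR adjusted p = 0.995), or -0.19 without HET 1 and -0.23 without WT 1.

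Hlf, the third PAR bZIP gene and a marker of blood stem cells, was much more abundant than its relatives. It averaged 76.2 ± 12.5 RPKM in HET and 81.0 ± 10.7 in WT (SD, n = 3 each). Tef averaged 6.63 ± 1.09 RPKM in HET and 8.52 ± 0.626 in WT, and Dbp 7.52 ± 1.94 in HET and 9.75 ± 1.31 in WT. The log2 fold change of Hlf was -0.09 ± 0.13 (SE), against -0.37 for Tef and -0.38 for Dbp, and the difference between these genes was not tested.

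**Figure D5:**
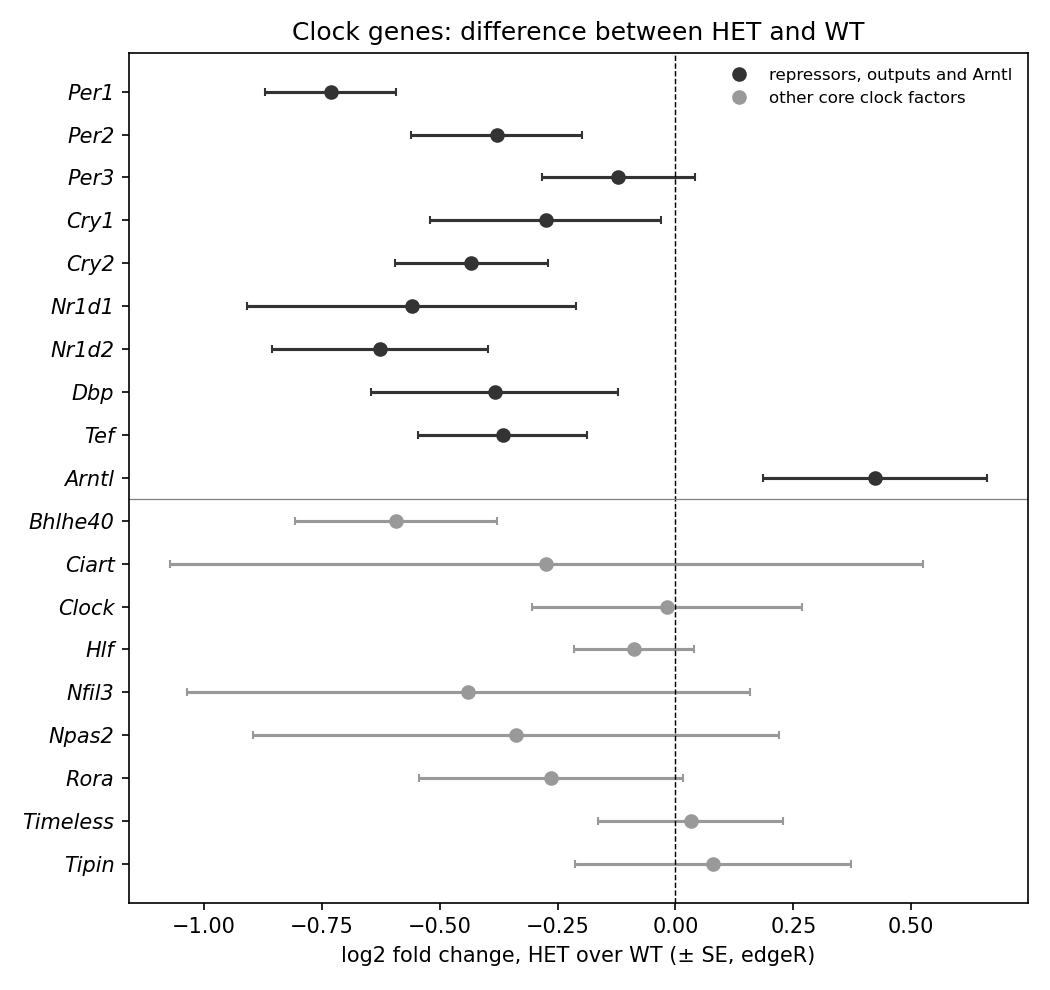
Log2 fold change of HET over WT with its standard error from edgeR for the 10 clock genes (black) and 9 of the 10 other tested core clock factors (grey). The 9 repressor and output genes lie left of 0 and Arntl right of it, while Clock, Hlf, Timeless and Tipin lie within 0.1 of 0.

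Enzymes and cofactors that modify clock proteins also gave no call. Of 26 tested, edgeR and both other tools called 0, with 2 of 26 at an unadjusted p under 0.05 beside 5.22% of all genes, and the median log2 fold change was -0.02. Those with the smallest p included Btrc, which encodes a ubiquitin ligase subunit that acts on PER proteins, the ubiquitin ligase gene Fbxw7, and the PER kinase gene Csnk1d. Btrc averaged 64.1 ± 5.65 CPM in HET and 45.0 ± 8.51 CPM in WT (SD, n = 3 each), and edgeR gave 0.51 ± 0.19 (SE) on the log2 scale with an adjusted p of 0.717. Fbxw7 had -0.31 ± 0.17 (SE; adjusted p = 0.957 in edgeR) and Csnk1d -0.18 ± 0.12 (SE; 0.995), or -0.09 without WT 3.

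Further clock-controlled genes did not share one direction. Of 11 tested, 5 had log2 fold changes below 0 and 6 above, with a median of 0.05. edgeR and limma-voom called 0, DESeq2 called 1 (Pim3), and 2 of 11 had an unadjusted p under 0.05 in edgeR (5.22% of all genes). Pim3, a serine/threonine kinase gene, had 27.9, 27.3 and 36.4 CPM in HET 1, 3 and 4, against 52.3, 55.3 and 63.9 CPM in WT 1, 3 and 4. Its libraries did not overlap, the log2 fold change was -0.91 ± 0.20 (SE), and the edgeR adjusted p was 0.0692, between 0.00574 and 0.373 over the 13 alternatives. Klf10, a clock-controlled Krueppel-like factor gene, had 0.39 ± 0.17 (SE; edgeR adjusted p = 0.844). Usp2, a deubiquitinase gene with a strong rhythm in many tissues, had -0.89 ± 0.48 (SE; edgeR adjusted p = 0.972), and Klf9 -0.39 ± 0.22 (SE; 0.980), or -0.16 without HET 1 and -0.62 without HET 3.

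Genes that share inducers with Per1 were set beside it. Of 12 tested CREB targets, 3 fell in HET past the threshold (Junb, Rgs2 and Crem) and 0 rose past it, where 0.221% of all genes fell past it. Their median log2 fold change was -1.13, with 10 values below 0 and 2 above. In 9 of 12 all HET libraries lay below all WT libraries, a separation found in 5.64% of all genes tested. An unadjusted p under 0.05 in edgeR was reached by 8 of 12, beside 5.22% of all genes. Crem, which encodes a cAMP-responsive modulator, had 12.6, 7.41 and 6.24 CPM in HET 1, 3 and 4, against 34.5, 20.7 and 32.9 CPM in WT 1, 3 and 4. It fell by 1.71 ± 0.33 log2 units (SE) with an edgeR adjusted p of 0.0190, and this p ran from 3.167e-04 to 0.224 over 13 alternatives, 8 of which passed. The call was lost with limma-voom and without HET 3, HET 4, WT 1 or WT 4, where the log2 fold change lay between -1.51 and -1.62. Junb, an AP-1 subunit gene, fell by 1.04 ± 0.12 log2 units (SE) with an edgeR adjusted p of 1.948e-04, and Rgs2, a brake on G protein signals, by 1.19 ± 0.17 (SE; 0.00284). Pde4b, a cAMP phosphodiesterase gene, had -0.47 ± 0.14 (SE; 0.393), or -0.31 without WT 1. Without HET 1, 5 CREB targets were among the 68 genes that passed. This list was written with some of these genes known to be lower.

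Of 18 tested immediate early genes, 2 fell in HET past the threshold (Btg2 and Junb) and 0 rose past it, where 0.221% of all genes fell past it. Junb and other genes of this list are also among the CREB targets, so the counts of these lists overlap. This list, too, was chosen with earlier results of these data known. The median log2 fold change was -0.54, with 12 values below 0 and 6 above. In 6 of 18 all HET libraries lay below all WT libraries (5.64% of all genes), and in 0 all lay above (4.69%). An unadjusted p under 0.05 in edgeR was reached by 9 of 18, beside 5.22% of all genes. Without HET 1, 6 immediate early genes were among the 68 genes that passed. Btg2, an antiproliferative gene, fell by 1.28 ± 0.15 log2 units (SE) with an edgeR adjusted p of 1.679e-04. The JAK-STAT inhibitor gene Socs3 had -0.84 ± 0.22 (SE; edgeR adjusted p = 0.180) and Egr3, a zinc finger factor gene, -1.33 ± 0.43 (SE; 0.497). Without HET 1 both passed, at -1.03 for Socs3 and -2.11 for Egr3. Of 14 tested glucocorticoid receptor targets, edgeR and limma-voom called 0, DESeq2 called 2, and 4 of 14 had an unadjusted p under 0.05 in edgeR (5.22% of all genes). Their median was -0.27, with 8 values below 0 and 6 above. All HET libraries lay below all WT libraries in 3 of 14 (5.64% of all genes) and above them in 1 of 14 (4.69%). Fkbp5, a classical glucocorticoid target, averaged 159 ± 27.0 CPM in HET and 124 ± 16.2 CPM in WT (SD, n = 3 each), a log2 difference of 0.36 ± 0.14 (SE) with an edgeR adjusted p of 0.792, or 0.21 without HET 1. Sgk1, a kinase gene, had -1.38 ± 0.35 (SE; edgeR adjusted p = 0.159), the NF-kB inhibitor gene Tnfaip3 -0.78 ± 0.19 (SE; 0.115) and the metallothionein gene Mt1 -0.996 ± 0.35 (SE; 0.632). Sgk1 passed without HET 1, at -1.64, and Sgk1 and Tnfaip3 passed in DESeq2. The part of these inducers in the Per1 difference was not tested.

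Among 9791 genes that averaged 2 or more in log2 CPM, those whose log2 CPM followed Per1 most closely over the 6 libraries were Abcb8 (Pearson's r = 0.99), Pld3 (0.98), Usmg5 (0.98), Nedd4 (0.98) and Pde4b (0.97). Their own log2 fold changes ran from -1.02 for Usmg5 to -0.16 for Abcb8. Those closest to Arntl were Gpr19 (r = 0.99), Ehbp1l1 (0.98), Stk38 (0.98), Immp2l (0.98) and Ttf1 (0.98), with log2 fold changes from 0.09 for Stk38 to 0.71 for Immp2l. They are the top of a ranking over 6 libraries that share depth and composition, and are given as a description. Unlike in the correlations between the clock genes, group means were not subtracted here. The difference between HET and WT therefore enters each r, and nothing is read from the direction of these fold changes.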

How the data were processed

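RNA was measured in 6 libraries of sorted stem cells. The authors deposited raw counts for each gene in each library, as whole numbers. FastQC, STAR 2.5.2b, edgeR, limma and mm10 are named in the submitters' processing notes without roles. The sources used here do not name the counter, the annotation or the strand setting, since the protocol fields of these samples describe another study. Groups follow the genotype label. Per-library columns without a sample numbered 0.

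Counts were fitted with edgeR 4.0.16 in R 4.3.3 (filterByExpr, TMM, robust quasi-likelihood F test, group as the only term, Benjamini-Hochberg over 10869 genes, threshold 0.05). The biological coefficient of variation was 20.7%. Standard errors came from the F statistic. Positions and exonic lengths came from GENCODE M21 (GRCm38, that is mm10). A count of 3 corresponded to 0.298 to 0.715 CPM. Alternatives were RLE and upper quartile scaling, other filters, DESeq2 1.42.0, limma-voom (limma 3.58.1), a replicate block and leaving out each library. The test was checked on simulated data.

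The genes and lists were chosen with earlier results of these data known. Named genes were the 10 clock genes, from each list all genes past the threshold and up to 4 by smallest p, and the 5 genes most like Per1 and the 5 most like Arntl, leaving out predicted genes. Some genes that this rule selects are not reported here. Hlf, Clock, Timeless and Tipin were named after their values were seen.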

Additional observations from a re-analysis of the deposited data

How the results depend on the processing

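In all 13 alternatives the 9 repressor and output genes kept negative and Arntl kept positive log2 fold changes, and none moved by more than the spread between its libraries. Per1 missed the threshold without HET 4, WT 1 or WT 3, so the number of the 10 clock genes that passed ranged from 0 to 1 over the fits that left out 1 library. Over those fits the number of all genes that passed ranged from 10 (without HET 4) to 68 (without HET 1), with 8 to 52 lower and 2 to 16 higher. CREB targets passing ranged from 2 to 5, glucocorticoid targets from 0 to 1 and immediate early genes from 2 to 6, and Rora ranged from -0.60 to 0.0244, changing sign without HET 1. DESeq2 called 59 genes, 51 lower and 8 higher, against 28, 24 and 4 in edgeR, with 1 clock-controlled gene, 5 CREB targets and 2 glucocorticoid targets. With the library number as a replicate block, 49 genes passed, 44 of them lower, with 1 clock-controlled gene and 5 CREB targets. After each group's mean was subtracted from each gene, same-numbered HET and WT libraries had correlations of 0.12, -0.06 and 0.06 over the genes tested. Differently numbered libraries had -0.19 to 0.14, so the numbers were not taken to pair the libraries. The cause of these shifts was not tested. Depth limits Nr1d1 most, which had 41 to 93 counts per library. Dbp had 124 to 161 counts, and the lowest counts were 107 for Cry1 and 111 for Nr1d2 (both HET 3) and 123 for Arntl (WT 4).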
